A study of Mus musculus with 18 samples.

Results

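The response examined is that of C57BL/6 mouse embryonic fibroblasts (MEFs) with normal levels of the RNA-binding protein IMP2 to the cytokine interleukin-17 (IL-17). The 2 groups were cells given control siRNA and then IL-17 (200 ng/mL, 8 h), and cells given control siRNA and left unstimulated. Both groups had been transfected 24 h before the medium was changed, so the siRNA and its transfection are common to them. The siRNA group is called Mock in the sample labels, and the study's design text names it siRNA control. The 6 libraries (3 per group) were chosen by that treatment label, out of 18 samples in the series. The study asked how IMP2, encoded by Igf2bp2, takes part in IL-17 signalling. Besides these libraries it holds 3 RNA-seq libraries from Imp2 siRNA cells with IL-17 (200 ng/mL, 8 h), 3 from unstimulated Imp2 siRNA cells, and 6 RNA immunoprecipitation (RIP) libraries. The labels do not say whether libraries of a group came from separate cultures, so p-values measure the spread between libraries, which may be technical.

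IL-17 binds a receptor made of IL-17RA and IL-17RC on fibroblasts and epithelial cells, and the adaptor Act1 (Traf3ip2) and TRAF6 carry the signal to NF-kB, to MAP kinases and to C/EBP transcription factors. IL-17 is a weak activator of transcription on its own, and much of its effect comes from slower decay of short-lived inflammatory mRNAs. In fibroblasts it is known for neutrophil-attracting chemokines, IL-6, the lipocalin Lcn2 and the cofactor IκBζ. The response also contains its own brakes, among them IκBα and the endoribonuclease regnase-1 (Zc3h12a).

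The 12 RNA-seq libraries held 33841054 to 44433699 counts, and the 6 compared here span that whole range. Each group had 1 library whose title starts with RB160 (replicate 1) and 2 whose titles start with NA (replicates 2 and 3). What the prefixes mean is unknown from the sources used here. Levels of single genes are given as CPM, counts scaled by the library's total multiplied by its TMM scaling factor, always in the order RB160, NA, NA. Those factors were 1.145, 0.977 and 0.993 with IL-17 and 1.113, 0.977 and 0.990 without it. Summed marker levels were scaled by the total alone, so they are not on the same scale as the single genes. Mitochondrial genes took 3.35%, 6.54% and 6.90% of counts with IL-17 and 3.85%, 6.64% and 6.06% without it. The receptor gene Il17ra was present in all 6 libraries, at 29.2, 31.7 and 28.1 CPM with IL-17 and 27.5, 30.3 and 29.7 CPM without it, and Igf2bp2 stood at 139, 166 and 156 CPM with IL-17 and 134, 168 and 146 CPM without it. Among fibroblast markers Col1a1 was the most abundant, at 8180.1, 7967 and 7143 CPM with IL-17 against 10014, 8333 and 8529 CPM without it. Macrophage markers summed to 15.2 to 15.9 CPM with IL-17 and 9.98 to 14.9 CPM without it. Cd14 was the most abundant of them, and Adgre1, Cd163 and Fcgr1 had 0 counts. Summed lymphocyte and neutrophil markers stayed at or below 0.234 CPM, and the endothelial ones reached 8.69 CPM with IL-17 and 9.85 CPM without it. Epithelial markers, with Krt19 the most abundant, summed to 43.4 to 110.0 CPM with IL-17 and 46.4 to 122.5 CPM without it, and neural and glial ones, with Tubb3 the most abundant, to 36.6 to 56.2 CPM with IL-17 and 36.4 to 55.5 CPM without it.

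IL-17 changed 56 of 13702 genes tested (0.409%) at an adjusted p under 0.05 by edgeR's quasi-likelihood test with Benjamini-Hochberg adjustment over all genes and the title prefix as a covariate. Of these, 32 rose (0.234% of genes tested) and 24 fell (0.175%). The rises had a median log2 fold change of 0.61 and ran from 0.30 to 5.01, while the falls had a median of -0.48 and ran from -0.35 to -1.29. The changes were therefore small for most genes, and 9 of the 56 reached 2-fold. Rises and falls alike are levels in a bulk sample, in which fewer cells of a type and less RNA per cell cannot be told apart. In 56 of 56 genes the IL-17 and unstimulated libraries were separated in the called direction within RB160 and again within NA, against 21.9% of all genes tested. Over all 3 against 3 libraries, ignoring the prefix, 28 of the 56 did not overlap, against 5.12% of all genes: 17 of the 32 rises (2.68% of all genes) and 11 of the 24 falls (2.44%). That separation and the call come from the same counts, so neither share is independent of the call. The count was 6, 18 and 14 without IL-17 replicates 1, 2 and 3, and 13, 83 and 20 without control replicates 1, 2 and 3. It was 1 with no prefix term and 193 by DESeq2, a list that held all 56. Nfkbiz, Nfkbia, Adamts5 and Lrig1 passed in every fit that left out 1 library, and each of the other 52 genes missed the threshold in at least 1 of these fits.

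**Figure D1:**
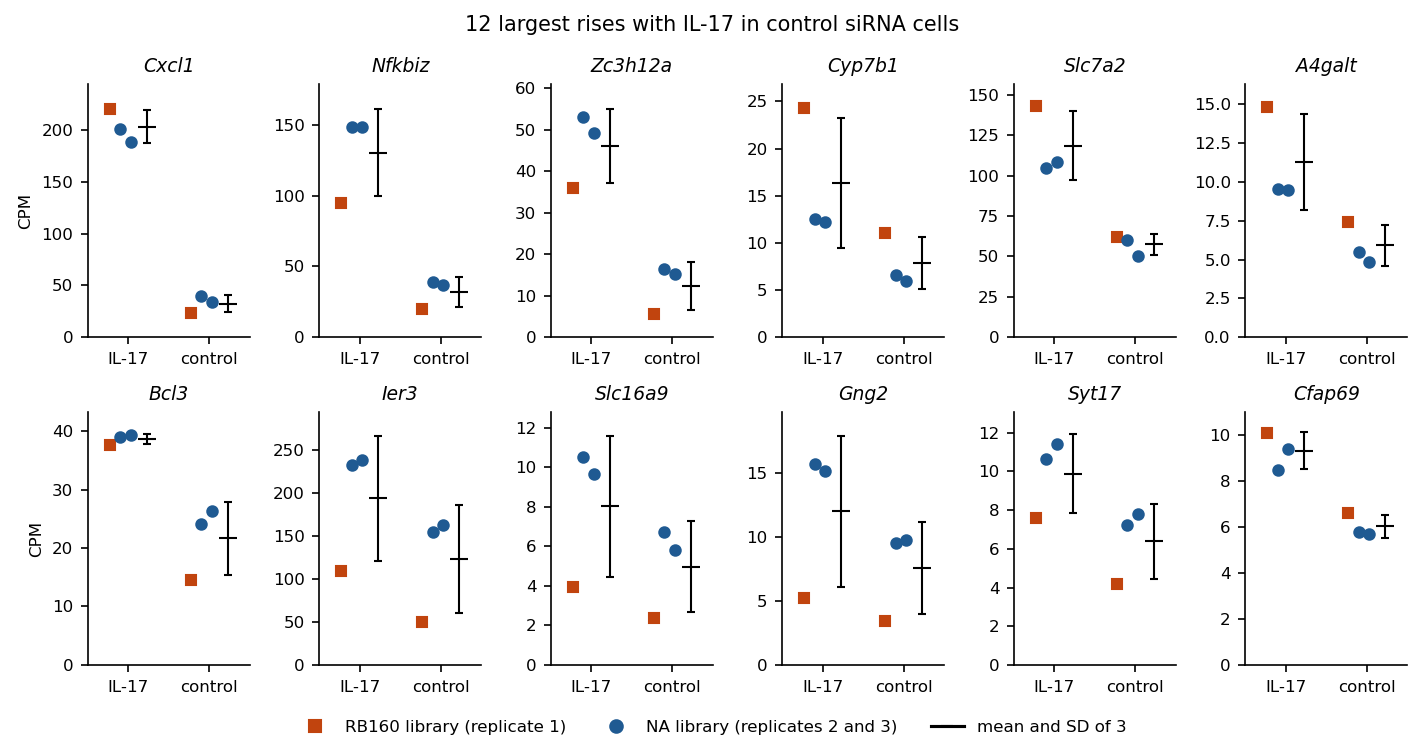
Levels (CPM, linear axis from 0) of the 12 genes with the largest rises among genes averaging 5 CPM or more in either group, in control siRNA cells with IL-17 (left) and without it (right). Squares are RB160 libraries, circles NA libraries, and bars the mean and SD of 3 libraries; Cxcl1 stands at 189 to 220.2 CPM with IL-17 against 23.5 to 39.3 CPM without it.

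A chemokine that draws neutrophils through the receptor CXCR2 had the largest rise among changed genes averaging 5 CPM or more. Cxcl1 (ENSMUSG00000029380, chromosome 5, 90891241 to 90893115, plus strand, mm10) had 220.2, 201 and 189 CPM with IL-17 against 23.5, 39.3 and 34.1 CPM without it. The groups did not overlap, and the IL-17 libraries lay close together although the unstimulated RB160 library was the lowest. This is a log2 fold change of 2.65 (SE 0.252, adjusted p = 0.00912). Cxcl5 (ENSMUSG00000029371), also on chromosome 5, was close to absent from unstimulated cells: it had 63, 38 and 31 counts with IL-17 against 0, 3 and 3 counts without it (adjusted p = 0.0162). Per library total that is a ratio of 20.4, with an exact 95% interval of 9.14 to 56.7 for counting error. Of 3 tested genes on the list of neutrophil-attracting CXC chemokines these 2 rose, and the third, Ppbp, had a log2 fold change of 0.53. Cxcl2 and Cxcl3 were not tested, with at most 21 and 2 counts in any of the 6 libraries.

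The DNA before the start of Cxcl1 and of 3 other risen genes is shown because these windows hold a match to the NF-kB consensus, the DNA element bound by the transcription factor through which IL-17 acts. Each window is the 250 bases before a RefSeq transcript start (GRCm38.p6), written 5′ to 3′ on the gene's strand, with the consensus match in capitals. Positions are chr5:90890995-90891244 (plus strand) for Cxcl1, chr17:35821463-35821712 (plus) for Ier3, chr12:55492648-55492897 (minus) for Nfkbia and chr17:46032378-46032627 (minus) for Vegfa.
Cxcl1: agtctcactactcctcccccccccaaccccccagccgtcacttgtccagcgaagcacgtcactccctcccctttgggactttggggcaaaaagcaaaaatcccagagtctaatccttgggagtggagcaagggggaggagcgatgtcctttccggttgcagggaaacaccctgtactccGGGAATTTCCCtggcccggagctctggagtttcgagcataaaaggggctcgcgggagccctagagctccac
Ier3: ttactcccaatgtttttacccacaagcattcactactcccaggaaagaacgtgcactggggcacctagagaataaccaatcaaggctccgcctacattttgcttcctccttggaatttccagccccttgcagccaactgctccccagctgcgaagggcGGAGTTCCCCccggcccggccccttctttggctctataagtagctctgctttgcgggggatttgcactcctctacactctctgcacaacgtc
Nfkbia: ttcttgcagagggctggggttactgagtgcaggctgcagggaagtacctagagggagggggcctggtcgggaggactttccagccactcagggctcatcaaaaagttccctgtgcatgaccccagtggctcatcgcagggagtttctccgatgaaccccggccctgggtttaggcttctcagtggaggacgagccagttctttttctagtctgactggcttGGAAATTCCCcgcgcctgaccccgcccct
Vegfa: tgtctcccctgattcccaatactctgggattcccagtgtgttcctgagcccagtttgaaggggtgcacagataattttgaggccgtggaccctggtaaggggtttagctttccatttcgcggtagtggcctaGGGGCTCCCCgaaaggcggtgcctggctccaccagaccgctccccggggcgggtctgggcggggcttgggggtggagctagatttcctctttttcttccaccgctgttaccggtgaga
The match lies 71 to 61 bases before the start in Cxcl1, 92 to 83 in Ier3, 29 to 20 in Nfkbia and 118 to 109 in Vegfa. On either strand, 4 of 19 risen genes with a window held the consensus (21.1%), as did 1 of 15 fallen genes (6.67%, Bdnf) and 1105 of 10167 tested genes (10.9%). The C/EBP letters TTGCNNAA were in 1 of 19 risen, 0 of 15 fallen and 8.79% of all genes, and the AP-1 letters TGANTCA in 2 of 19, 1 of 15 and 5.81%. RefSeq windows were matched for 34 of the 56 changed genes. A match describes letters in a window and shows no binding.

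Regulators of NF-kB itself formed the next group, with 3 of 23 tested members risen, 0 fallen, and a median log2 fold change of 0.13 against -0.01 over all genes tested (DESeq2 passed 4, the 3 and Nfkb1). Nfkbiz (ENSMUSG00000035356, chromosome 16, 55811375 to 55838899, minus strand), whose product IκBζ is a nuclear cofactor that turns on secondary response genes, had 94.8, 149 and 148 CPM with IL-17 against 19.9, 38.9 and 36.9 CPM without it. Every IL-17 library was above any unstimulated one, and the log2 fold change of 2.05 (SE 0.127) carried the lowest adjusted p of all genes, 9.87e-05. Nfkbia (ENSMUSG00000021025), which encodes the cytoplasmic inhibitor IκBα whose promoter window is shown above, had 61.2, 109.9 and 106 CPM with IL-17 against 44.1, 71.1 and 73.2 CPM without it. Its groups overlap because the RB160 libraries run lower in both, while within each prefix the IL-17 libraries are higher (log2 fold change 0.55, SE 0.0543, adjusted p = 0.000483).

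Bcl3, an atypical IκB that partners the p50 and p52 subunits in the nucleus, had 37.7, 38.9 and 39.4 CPM with IL-17 against 14.5, 24.2 and 26.3 CPM without it. Its IL-17 libraries were nearly equal and all above the unstimulated ones (0.87, SE 0.155, adjusted p = 0.0426). Among the 20 members that did not pass by edgeR, Nfkb1, the p105/p50 subunit, had 119.6, 134 and 125 CPM with IL-17 against 75.9, 101 and 99.6 CPM without it, groups that do not overlap (0.45, adjusted p = 0.223 by edgeR, past the threshold by DESeq2). Rela, Rel, Nfkb2 and Relb, the other subunits, had log2 values of -0.01, 0.03, 0.06 and 0.17. Tnfaip3, the ubiquitin editor A20, stood at 0.18 (adjusted p = 0.543).

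The RNase gene Zc3h12a (ENSMUSG00000042677, chromosome 4, 125118423 to 125127840, minus strand) was the one riser among 15 tested regulators of mRNA decay and stability, a list that takes in the IMP, ELAV and TTP families. Regnase-1, its product, cuts stem-loops in mRNAs such as Il6. Levels were 35.9, 52.95 and 49.2 CPM with IL-17 against 5.68, 16.4 and 15.1 CPM without it. The groups stood well apart, with the unstimulated RB160 library lowest (log2 fold change 1.97, SE 0.236, adjusted p = 0.0166). Zfp36, which encodes the AU-rich element binding protein TTP, had 53.8, 57.4 and 54.5 CPM with IL-17 and 52.1, 59.1 and 58.2 CPM without it (-0.02, adjusted p = 0.974). Arid5a, whose product protects IL-17 target mRNAs, had a value of 0.31, and Elavl1 (HuR) 0.02.

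A pair of genes that feed nitric oxide synthesis rose together. Nos2, inducible nitric oxide synthase, had 185, 70 and 36 counts with IL-17 against 0, 3 and 4 counts without it (adjusted p = 0.00845), a ratio of 38.6 per library total with an exact 95% interval of 18.5 to 96.9 for counting error. The lowest IL-17 library was still far above the highest unstimulated one, but the mean of 2.18 ± 1.32 CPM (SD, n = 3) with IL-17 is low. Slc7a2, the cationic amino acid transporter that brings in arginine, had 143, 105 and 108 CPM with IL-17 against 62.3, 60.1 and 50.0 CPM without it, again with no overlap (1.03, SE 0.143, adjusted p = 0.0181). The other 4 of 6 tested genes on this list did not pass: Odc1, the first enzyme of polyamine synthesis, at 0.35, the transporter Slc7a1 at 0.08, and the arginine-recycling enzymes Ass1 and Asl at -0.01 and -0.09.

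The remaining large rises belong to varied pathways. Cyp7b1, the hydroxylase that inactivates 25- and 27-hydroxycholesterol, had 24.3, 12.5 and 12.2 CPM with IL-17 against 11.1, 6.55 and 5.97 CPM without it, with no overlap (1.04, SE 0.134, adjusted p = 0.00649). It was the one gene past the threshold among 15 of oxysterol and cholesterol metabolism, 12 of which had negative values, against 52.1% of all genes tested. A4galt, which makes the glycolipid Gb3, had 14.8, 9.53 and 9.49 CPM with IL-17 against 7.40, 5.52 and 4.87 CPM without it, also with no overlap (0.92, SE 0.127, adjusted p = 0.00845). Ier3, an early stress gene whose window is shown above, had 109.8, 233 and 239 CPM with IL-17 against 50.3, 155 and 163 CPM without it. The RB160 libraries sit lower in both groups, so the groups overlap (0.74, SE 0.108, adjusted p = 0.0166). By edgeR Ier3 was the 1 riser among 16 immediate early genes (DESeq2 also passed Ier5 as higher), where Fos, Jun and Egr1 had values of -0.18, 0.05 and -0.08.

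Lower-expressed genes followed. Slc16a9, a monocarboxylate transporter family member, had 3.95, 10.5 and 9.66 CPM with IL-17 against 2.38, 6.74 and 5.82 CPM without it (0.69, adjusted p = 0.0418). Gng2, a G protein gamma subunit, had 5.21, 15.7 and 15.2 CPM with IL-17 against 3.43, 9.56 and 9.74 CPM without it (0.65, adjusted p = 0.0138). Both overlap over the 3 libraries, with RB160 low in each group. Syt17, of the synaptotagmin family, had 7.57, 10.6 and 11.4 CPM with IL-17 against 4.19, 7.21 and 7.79 CPM without it (0.65, adjusted p = 0.0172), and Cfap69, a cilia protein, 10.1, 8.47 and 9.40 CPM with IL-17 against 6.61, 5.79 and 5.67 CPM without it (0.63, adjusted p = 0.0154). Cfap69 alone of these 4 had groups that do not overlap. Gfra2, the neurturin co-receptor, had 52, 25 and 26 counts with IL-17 against 9, 10 and 8 counts without it, a ratio of 3.54 (exact 95% interval 2.30 to 5.63, counting error only).

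The other 16 risen genes had log2 fold changes of 0.30 to 0.62. Surface receptors and their regulators among them were Tgfbr3 (0.62), the co-receptor betaglycan, Lrig1 (0.60), a brake on EGF receptors, Ptch1 (0.45), the Hedgehog receptor, and Cd47 (0.30), the ligand that restrains phagocytes. Lrig1 had 78.5, 123 and 112 CPM with IL-17 against 49.9, 80.3 and 78.1 CPM without it (adjusted p = 0.00992), higher within each prefix though the groups overlap. Transporters were Slc12a2 (0.51), the sodium-potassium-chloride cotransporter, and Slco3a1 (0.39), an organic anion transporter. Redox and metal-handling genes were the metallothionein Mt1 (0.59), the sulfide oxidase Sqrdl (0.39) and Gclm (0.30), a subunit of the rate-limiting enzyme of glutathione synthesis. Vegfa, the angiogenic factor, had 202, 421 and 393 CPM with IL-17 against 126, 326 and 286 CPM without it (0.50, SE 0.0957, adjusted p = 0.0477) and was by edgeR the 1 riser among 23 hypoxia and glycolysis genes. DESeq2 also passed Hk2 there as higher, and 10 of the 23 were higher at an unadjusted p under 0.05, against 4.62% of all genes tested. The rest were the tendon transcription factor gene Mkx (0.53), the centrosomal gene Fgfr1op (0.59), the Golgi SNARE gene Stx6 (0.42), the actin-severing gene Dstn (0.39), Itpripl2 (0.47) and Lhfpl2 (0.38).

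Several genes best known as IL-17 targets had large fold changes that did not pass. On the list of 23 tested targets, 23 had positive log2 values with a median of 1.39, against 47.9% positive and a median of -0.01 over all genes. By edgeR 5 passed (Cxcl5, Cxcl1, Nfkbiz, Zc3h12a and Nfkbia), against 56 of 13702 genes tested, and by DESeq2 10, against 193. At an unadjusted p under 0.05 by edgeR, 18 of the 23 were higher (78.3%), against 4.62% of all genes tested. Over the 23 tested targets the median log2 ratio was 1.29 within RB160, with 1 library per group, and 0.58 within NA. Il6, the cytokine that links IL-17 to acute inflammation, had 31.8, 40.6 and 34.9 CPM with IL-17 against 1.90, 12.5 and 7.71 CPM without it. Its groups do not overlap, and relative to their level the IL-17 libraries are more alike than the unstimulated ones (2.41, SE 0.485, adjusted p = 0.125). The SD was 4.46 CPM with IL-17 and 5.28 CPM without it. Lcn2, which binds bacterial siderophores, had 36.8, 121 and 88.9 CPM with IL-17 against 0.143, 42.8 and 33.4 CPM without it. There the RB160 value with IL-17 is below the highest unstimulated NA value (2.07, SE 0.846, adjusted p = 0.447).

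The monocyte chemokine genes also had large values below the threshold. Ccl2 had 184, 325 and 314 CPM with IL-17 against 53.3, 119 and 112 CPM without it (1.54, adjusted p = 0.214), and Ccl7 had 111, 189 and 206 CPM with IL-17 against 36.3, 78.4 and 79.8 CPM without it (1.39, adjusted p = 0.221). Neither overlaps between groups. Cebpd, a C/EBP factor of the acute phase, had 62.9, 129 and 126 CPM with IL-17 against 19.4, 72.3 and 54.0 CPM without it, with overlap (1.18, adjusted p = 0.229). Its partner Cebpb had 35.0, 32.5 and 34.2 CPM with IL-17 against 18.1, 27.6 and 25.8 CPM without it, with none (0.54, adjusted p = 0.112). By edgeR 0 of 5 tested C/EBP genes passed (2 higher at an unadjusted p under 0.05, 40%, against 4.62% of all genes tested), and by DESeq2 these 2. Other large values below the threshold, among genes averaging 5 CPM or more in either group, were Selp (1.47), the adhesion molecule P-selectin, Prnd (1.31), which encodes the prion-like protein doppel, and Mt2 (1.21), a metallothionein. In a fit with a separate level for each group and prefix, each RB160 level held 1 library, so the spread came from NA libraries alone. Differences of the IL-17 effect between prefixes are no part of that spread. Log2 fold changes there were 2.62 for Il6, 3.63 for Lcn2, 1.57 for Ccl2, 1.665 for Selp and 1.42 for Ccl7. Prnd, Mt2, Cebpd and Cebpb had 1.605, 1.31, 1.24 and 0.53. By DESeq2 Il6, Ccl2, Selp, Ccl7, Cebpd and Cebpb passed (Il6 adjusted p = 0.00119), and Lcn2, Prnd and Mt2 did not.

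**Figure D2:**
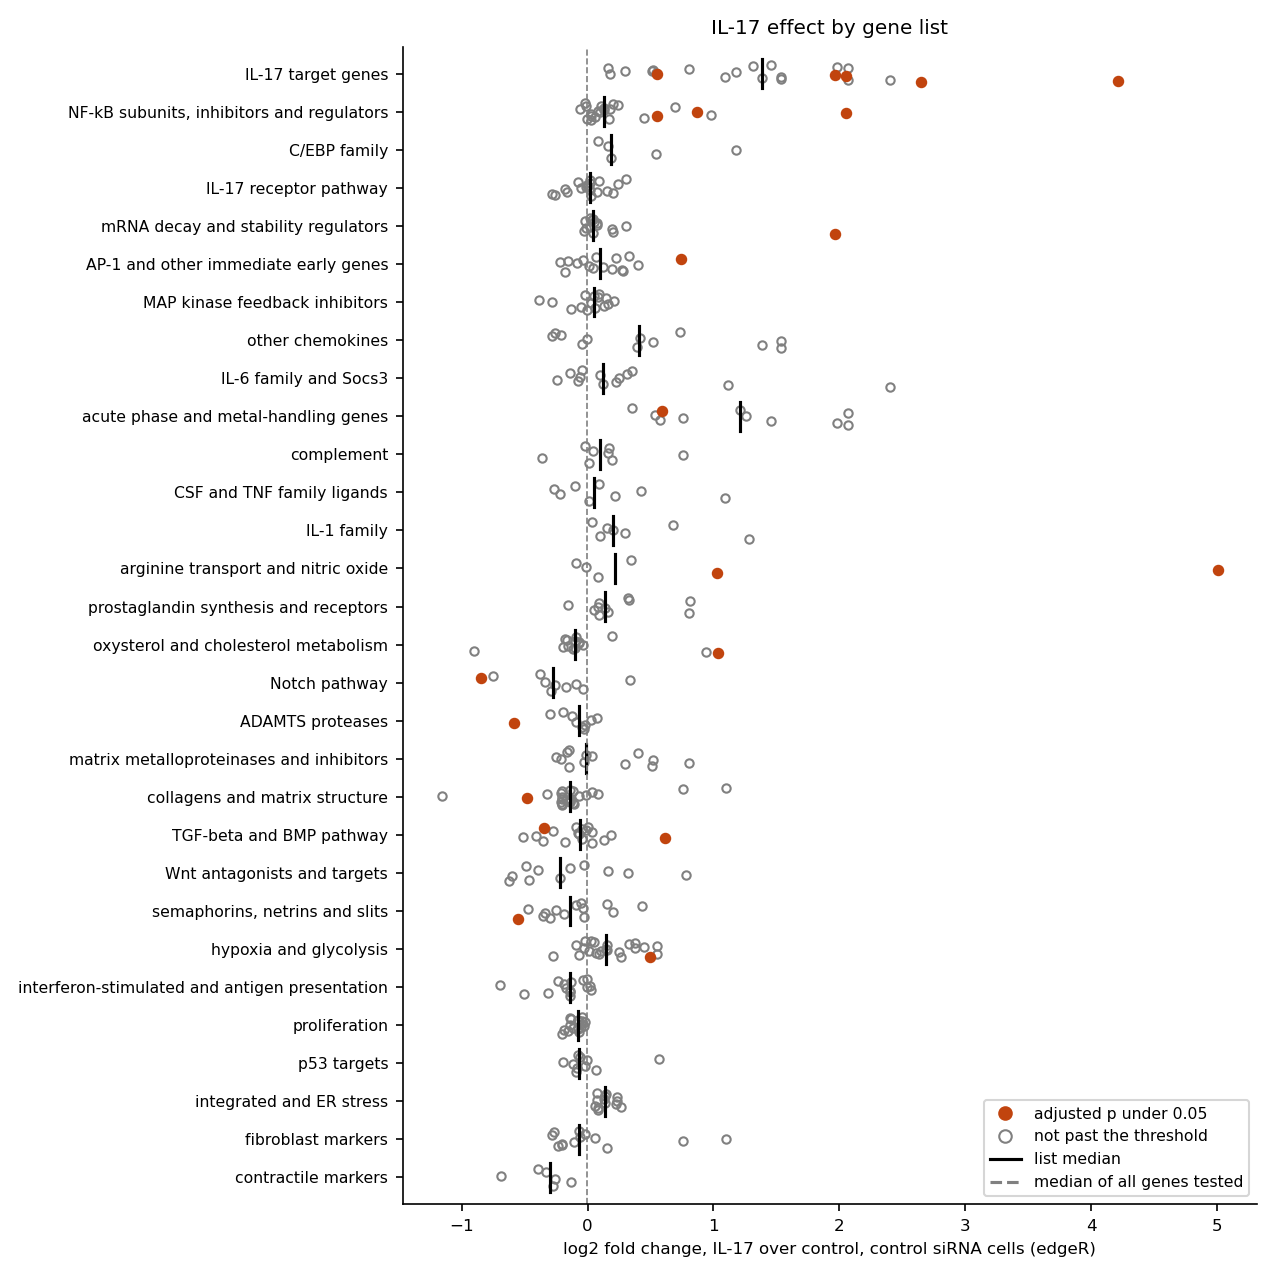
Log2 fold changes with IL-17 over unstimulated cells in control siRNA cells, 1 point per tested gene, with genes grouped by list. Filled points passed an adjusted p of 0.05 and bars mark list medians; the IL-17 target list has a median of 1.39 and the proliferation list one of -0.08.

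Acute phase and metal-handling genes shared this pattern, with 11 of 11 tested members positive, a median of 1.21, and Mt1 the 1 past the threshold. At an unadjusted p under 0.05, 8 of the 11 were higher (72.7%), against 4.62% of all genes tested. Within prefixes the median log2 ratio of this list was 1.66 in RB160, with 1 library per group, and 0.30 in NA. The signed ratio was larger in RB160 for 11 of 11 genes, against 45.3% of all genes tested. Mt1 had 61.2, 56.9 and 58.4 CPM with IL-17 against 35.2, 40.2 and 41.6 CPM without it, close values within each group and none overlapping (adjusted p = 0.0221). The nearby gene Mt2 had 105, 109.9 and 105 CPM with IL-17 against 24.6, 63.4 and 49.6 CPM without it (adjusted p = 0.341). Of the IL-6 family, 0 of 13 passed by edgeR, and Il6 by DESeq2. At an unadjusted p under 0.05, 5 were higher (38.5%, against 4.62% of all genes tested). Lif had 85.4, 265 and 239.6 CPM with IL-17 against 28.8, 133 and 122 CPM without it (1.12, adjusted p = 0.285). Socs3, the feedback inhibitor of STAT3, was at 0.36 and the shared receptor Il6st at -0.06. Of 12 other chemokines 0 passed by edgeR, and Ccl2 and Ccl7 by DESeq2. At an unadjusted p under 0.05, 4 were higher (33.3%, against 4.62%). Their median was 0.41, with the interferon-type Cxcl10 at -0.28 and the homeostatic Cxcl12 at -0.21. Of 11 prostaglandin genes 0 passed by edgeR or DESeq2 (3 higher at an unadjusted p under 0.05, 27.3%, against 4.62%). Ptgs2 (COX-2), an abundant transcript, had 443, 1238 and 1062 CPM with IL-17 against 181, 849 and 632 CPM without it, with wide overlap between groups (0.81, adjusted p = 0.361).

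The receptor pathway itself did not change past the threshold. Of 19 tested genes 0 passed by edgeR or DESeq2 (2 higher, 10.5%, and 3 lower, 15.8%, at an unadjusted p under 0.05, against 4.62% and 6.13% of all genes tested), with a median log2 fold change of 0.02. Il17rc, the second receptor chain, had 27.2, 24.9 and 22.3 CPM with IL-17 against 33.8, 27.4 and 27.6 CPM without it, groups that do not overlap by a narrow margin (-0.26, adjusted p = 0.285). Traf3ip2 (Act1) stood at 0.20, Traf6 at 0.07 and Traf4, a competitor of TRAF6 at Act1, at -0.18.

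Among fallen genes averaging 5 CPM or more in either group, Hey2 (ENSMUSG00000019789), a transcriptional repressor induced by Notch, had the largest fall. It had 2.03, 3.45 and 3.74 CPM with IL-17 against 4.90, 5.65 and 5.64 CPM without it, with no overlap (-0.85, SE 0.14, adjusted p = 0.0172). Of 10 tested Notch pathway genes it was the 1 that passed by edgeR, DESeq2 also passing Hes1 as lower. Negative values were found in 9 of the 10 (median -0.28), against 52.1% of all genes tested. At an unadjusted p under 0.05, 4 of the 10 were lower (40%) and 0 higher, against 6.13% and 4.62% of all genes tested. Hes1, the classical Notch effector, had 18.8, 41.3 and 44.1 CPM with IL-17 against 27.9, 51.1 and 49.3 CPM without it (-0.34, adjusted p = 0.0687), and Notch1 a value of -0.29. Hey1 was the exception at 0.34.

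**Figure D3:**
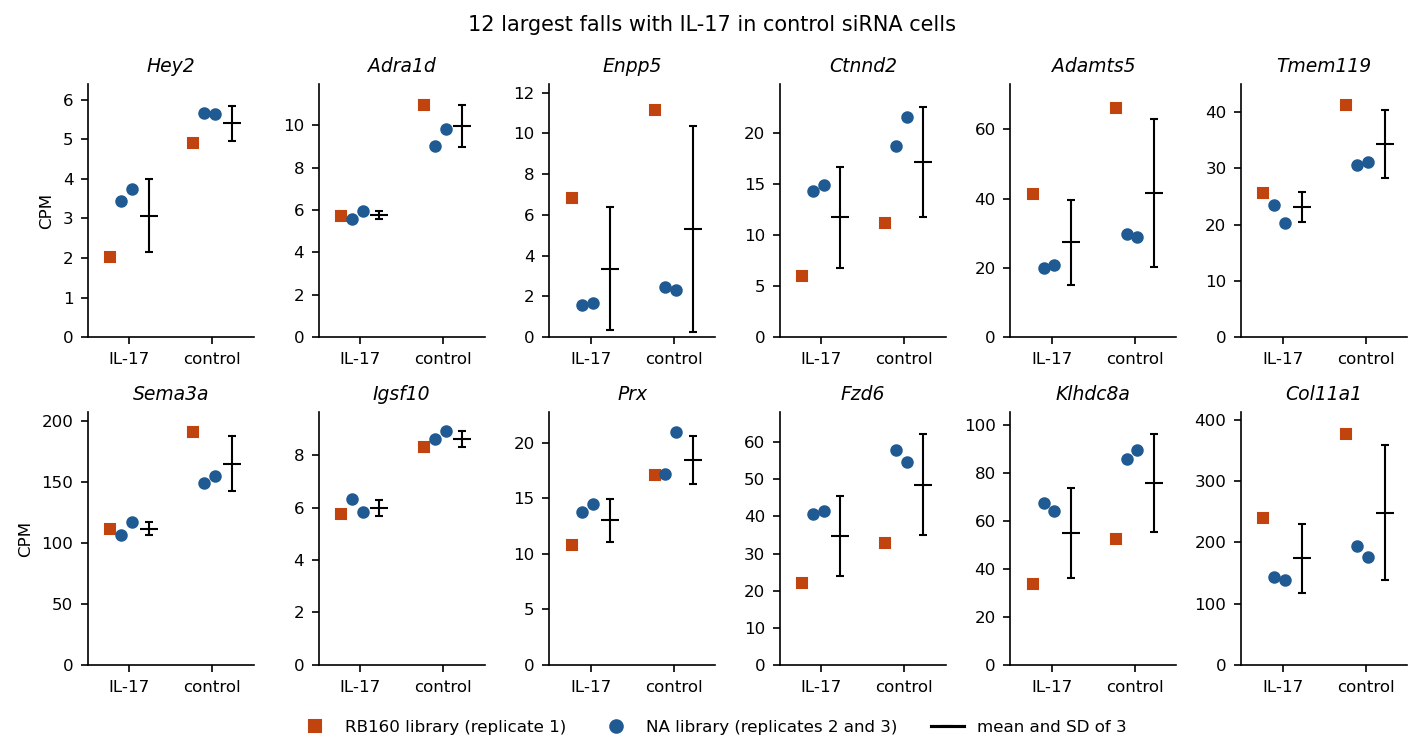
Levels (CPM, linear axes from 0) of the 12 genes with the largest falls among genes averaging 5 CPM or more in either group, in control siRNA cells with IL-17 (left) and without it (right). Squares are RB160 libraries, circles NA libraries, and bars the mean and SD of 3 libraries; within either prefix every IL-17 library lies below the unstimulated ones, as for Adamts5 at 41.4 CPM against 66.2 CPM in RB160.

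Extracellular matrix and its proteases supplied several falls. Adamts5, an aggrecanase, had 41.4, 19.97 and 20.7 CPM with IL-17 against 66.2, 29.8 and 28.9 CPM without it. The RB160 libraries run higher in both groups, so the groups overlap, and within each prefix the IL-17 level is lower (-0.58, SE 0.065, adjusted p = 0.00145). It was the 1 of 10 ADAMTS genes that passed, while 3 of the 10 (30%) were lower at an unadjusted p under 0.05, against 6.13% of all genes tested. The other aggrecanase on the list, Adamts4, had a value of -0.02. Col11a1, a minor fibrillar collagen, had 239, 144 and 138 CPM with IL-17 against 376, 194 and 176 CPM without it (-0.48, SE 0.0675, adjusted p = 0.00845), again overlapping through RB160. It was the 1 of 24 matrix genes past the threshold, and 20 of the 24 had negative values (median -0.14), against 52.1% of all genes tested. At an unadjusted p under 0.05, 10 of the 24 were lower (41.7%) and 2 higher (8.33%), against 6.13% and 4.62% of all genes tested. Col1a1 and Col1a2, the chains of type I collagen, each stood at -0.20. Lum and Dcn, small proteoglycans, had positive values, at 1.098 and 0.76, and did not pass. Nid2, a basement membrane nidogen, fell by 0.38 on the log2 scale (adjusted p = 0.0332). Of 13 matrix metalloproteinases and inhibitors 0 passed by edgeR or DESeq2. At an unadjusted p under 0.05, 1 was higher (7.69%) and 2 lower (15.4%), against 4.62% and 6.13% of all genes tested.

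Signalling and guidance genes made up the next set. Adra1d, the alpha-1D adrenergic receptor, had 5.74, 5.603 and 5.96 CPM with IL-17 against 10.99, 9.01 and 9.86 CPM without it, with no overlap (-0.79, SE 0.146, adjusted p = 0.0347). Sema3a, a secreted axon repellent, had 111, 106 and 118 CPM with IL-17 against 192, 149 and 155 CPM without it, with no overlap (-0.55, SE 0.0886, adjusted p = 0.0172). It was the 1 of 14 semaphorin, netrin and slit genes that passed by edgeR (DESeq2 also passed Sema3f as lower). Of the 14, 11 had negative values, against 52.1% of all genes tested. At an unadjusted p under 0.05, 4 of the 14 were lower (28.6%, against 6.13%). Fzd6, a Wnt receptor, had 22.2, 40.6 and 41.4 CPM with IL-17 against 32.9, 58.0 and 54.8 CPM without it (-0.49, SE 0.0865, adjusted p = 0.0243), overlapping through RB160. Wnt4, a ligand, had 14, 29 and 23 counts with IL-17 against 34, 55 and 61 counts without it, a ratio of 0.409 (exact 95% interval 0.301 to 0.549, counting error only; adjusted p = 0.0426). Neither is on the list of Wnt antagonists and targets, of which 0 of 11 passed by edgeR (median -0.22). At an unadjusted p under 0.05, 1 was higher (9.09%) and 4 lower (36.4%), against 4.62% and 6.13% of all genes tested. By DESeq2 Dkk3 and Axin2 passed as lower, with edgeR log2 values of -0.47 and -0.39. Id2, a BMP-induced inhibitor of helix-loop-helix factors, fell by 0.35 on the log2 scale, so that 18 TGF-beta and BMP genes gave 1 rise, Tgfbr3, and 1 fall.

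The other large falls had no list of their own. Tmem119, a membrane protein known from osteoblasts and microglia, had 25.6, 23.4 and 20.3 CPM with IL-17 against 41.3, 30.5 and 31.1 CPM without it, with no overlap (-0.56, SE 0.0778, adjusted p = 0.00845). Igsf10 had 5.76, 6.32 and 5.84 CPM with IL-17 against 8.33, 8.60 and 8.93 CPM without it (-0.53), and Prx, the myelin-sheath protein periaxin, 10.8, 13.8 and 14.5 CPM with IL-17 against 17.1, 17.2 and 20.9 CPM without it (-0.51). Both pairs of groups are fully separate. Ctnnd2, delta-catenin, had 6.02, 14.3 and 14.9 CPM with IL-17 against 11.2, 18.8 and 21.6 CPM without it (-0.59), Klhdc8a 33.6, 67.7 and 64.0 CPM with IL-17 against 52.5, 85.8 and 89.4 CPM without it (-0.48), and Enpp5 6.84, 1.59 and 1.66 CPM with IL-17 against 11.2, 2.46 and 2.30 CPM without it (-0.62). These 3 overlap because RB160 stands apart from NA in both groups, below it for Ctnnd2 and Klhdc8a and above it for Enpp5. The remaining 10 falls were of 0.35 to 0.41: the neurotrophin Bdnf (-0.36), the lectin-pathway protease Masp1 (-0.41), the transcriptional regulators Mecom (-0.41), Zfhx4 (-0.40) and Eya4 (-0.37), the cAMP phosphodiesterase Pde8b (-0.40), the adhesion adaptor Sorbs3 (-0.35), Tnrc18 (-0.38), Olfml2b (-0.36), and Nid2, given above.

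Proliferation, interferon, stress and contractile genes gave no calls by edgeR, and Cnn1, a contractile marker, was the 1 gene of these that passed by DESeq2. All 16 tested proliferation genes had negative values, against 52.1% of all genes tested. They ran from -0.20 for Mki67 to -0.02, with a median of -0.08 and 0 genes at an unadjusted p under 0.05. Of 15 interferon-stimulated and antigen presentation genes 0 passed by edgeR (3 lower at an unadjusted p under 0.05, against 6.13% of all genes tested), with a median of -0.14. The 10 p53 targets (1 higher at an unadjusted p under 0.05, 10%, against 4.62% of all genes tested) had a median of -0.07. The 13 integrated and ER stress genes (2 higher at that p, 15.4%) were all positive, against 47.9% of all genes tested, with a median of 0.14. Contractile markers had a median of -0.30 over 6 genes (3 lower at an unadjusted p under 0.05, 50%, against 6.13% of all genes tested). Acta2, smooth muscle actin, was at 2643, 6167 and 5260.2 CPM with IL-17 against 3775, 6465 and 6224 CPM without it. Those Acta2 groups overlap.

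Lists of other inflammatory mediators also gave 0 calls by edgeR. At an unadjusted p under 0.05, which 4.62% of all genes tested passed as higher and 6.13% as lower, there were 1 higher and 1 lower of 8 complement genes, 1 and 1 of 8 CSF and TNF family ligands, 2 higher of 7 IL-1 family genes, 2 higher of 4 leukocyte adhesion genes, and 1 higher and 2 lower of 15 MAP kinase feedback inhibitors. By DESeq2 Selp passed among the adhesion genes and Dusp14, a MAP kinase phosphatase, among the feedback inhibitors, and 0 in the others. The largest values in these lists were 1.47 for Selp, 1.31 for the adhesion molecule gene Icam1 and 1.28 for Il1a, the alarmin IL-1 alpha. Icam1 and Il1a rest on few counts. Icam1 had 27, 11 and 10 counts with IL-17 against 9, 4 and 4 without it. Il1a had 12, 45 and 37 counts with IL-17 against 2, 26 and 10 without it.

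The log2 ratio with IL-17, from log2(CPM + 1) values, was larger in absolute size in RB160 than in NA for most genes. This held for 48 of 56 changed genes, against 70.9% of all genes tested. RB160 ratios set 1 library against 1 and NA ratios 2 against 2, so spread between libraries enlarges absolute ratios more in RB160. A direct test of the difference of the IL-17 effects between prefixes passed for 15 genes (0.109%), 12 with a more positive effect in RB160 (0.0876%) and 3 with a more negative one (0.0219%). RB160 had 1 library per group, whose spread was taken to be that of NA. Of the 12, 6 are on the acute phase list: Serpina3n, Steap4, Saa3, C3, Serpina3g and Slc39a14. Serpina3n, a protease inhibitor, had 33.0 CPM with IL-17 against 3.62 CPM without it in RB160, but 2.63 and 1.87 CPM against 3.06 and 1.82 CPM in NA (difference 3.31, SE 0.396, adjusted p = 0.00833). Steap4, a metalloreductase, had 325 counts with IL-17 against 17 without it in RB160 and 12 and 11 against 14 and 8 in NA. Both genes thus differed between IL-17 and unstimulated cells in the RB160 pair and lay within the spread of the NA libraries.

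C3, the central complement protein, had 105 CPM with IL-17 against 36.4 CPM without it in RB160, and 38.2 and 32.5 CPM against 29.9 and 25.5 CPM in NA (difference 1.18, SE 0.164, adjusted p = 0.00591). Saa3, serum amyloid A3, had 136 counts with IL-17 against 0 without it in RB160, and 71 and 54 counts against 32 and 26 in NA, so its fitted difference rests on a library at 0. Selp and Zc3h12a were higher with IL-17 in both prefixes and by more in RB160: Selp had 23.6 CPM with IL-17 against 3.50 CPM without it in RB160, and 127 and 115 CPM against 58.5 and 52.7 CPM in NA. St8sia2, a polysialyltransferase, was the largest in the other direction, with 6.27 CPM with IL-17 against 21.1 CPM without it in RB160, and 6.21 and 6.07 CPM against 7.78 and 8.39 CPM in NA (difference -1.35, SE 0.219, adjusted p = 0.017). Unstimulated levels also moved with the prefix, in both directions. Among genes with a more positive effect in RB160, the unstimulated RB160 library was the lowest of the 3 for Selp, Zc3h12a, Saa3, Has2, Slc39a14, Thbd and Ctps. It was the highest for C3, Serpina3n, Steap4, Serpina3g and Nek6. For St8sia2, Slc1a6 and Rps27rt, with a more negative effect, it was also the highest. It was the lowest for Il6 and Lcn2, which did not pass the test of the difference. The part of these baselines in the differences was not tested. In Imp2 siRNA cells, whose libraries are not in that contrast but share the fit and its spread, 7 genes differed by prefix (0.0511%), 6 upward (0.0438%) and 1 downward (0.0073%), and Selp, Saa3 and Zc3h12a were 3 of them.

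**Figure D4:**
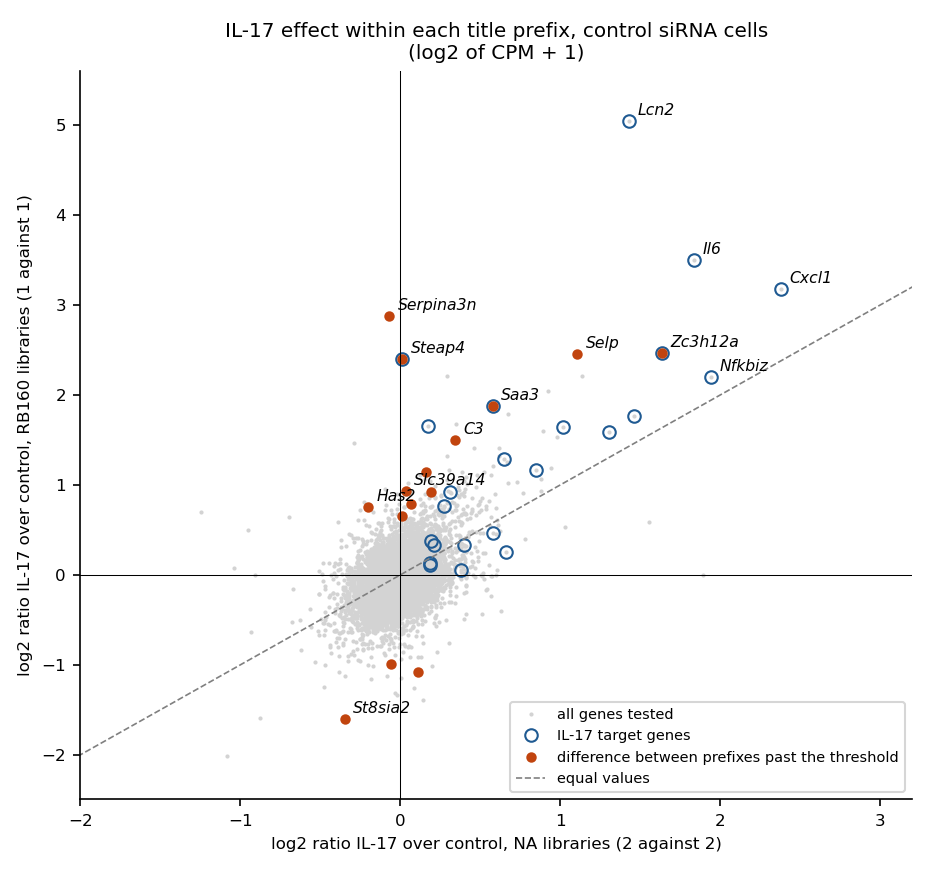
Log2 ratio of IL-17 over unstimulated libraries in control siRNA cells, from log2(CPM + 1), within RB160 (vertical, 1 library per group) and within NA (horizontal, 2 per group), for each gene tested. Circles are IL-17 target genes and filled points the 15 genes that differ by prefix; Lcn2 lies at 5.05 in RB160 and 1.43 in NA.

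The same contrast in Imp2 siRNA cells sets none of these 6 libraries against each other, although it comes from the same fit, with its shared spread and prefix term. There 62 of 13702 genes passed (0.452%). All 56 genes had the same sign of change, against 69.4% of all genes. In 55 of the 56 the libraries were separated in that direction within both prefixes. The share of all genes so separated was not counted in Imp2 siRNA cells, and in control siRNA cells it was 21.9%. Past the threshold in Imp2 siRNA cells too were 25 of the 32 risen genes (0.285% of all genes rose there) and 11 of the 24 fallen ones (0.168% fell there). Adra1d, Adamts5 and Tmem119 were among the 11, with log2 fold changes of -0.79, -0.58 and -0.56 in control siRNA cells and -0.84, -0.58 and -0.56 in Imp2 siRNA cells. Hey2, Prx, Igsf10 and Enpp5 did not pass there, at -0.85, -0.51, -0.53 and -0.62 in control siRNA cells and -0.54, -0.26, -0.27 and -0.19 in Imp2 siRNA cells.

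The difference of the IL-17 effects by siRNA, control minus Imp2, passed for 0 of 13702 genes by edgeR (141 at an unadjusted p under 0.05), so a call in 1 condition alone shows no difference between them. Of the 56 genes 2 had an unadjusted p under 0.05 for it: A4galt, with a difference of -0.60 (SE 0.201), and Enpp5, with -0.43 (SE 0.171). For Cxcl1 the difference was -0.50 (SE 0.381).

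**Figure D5:**
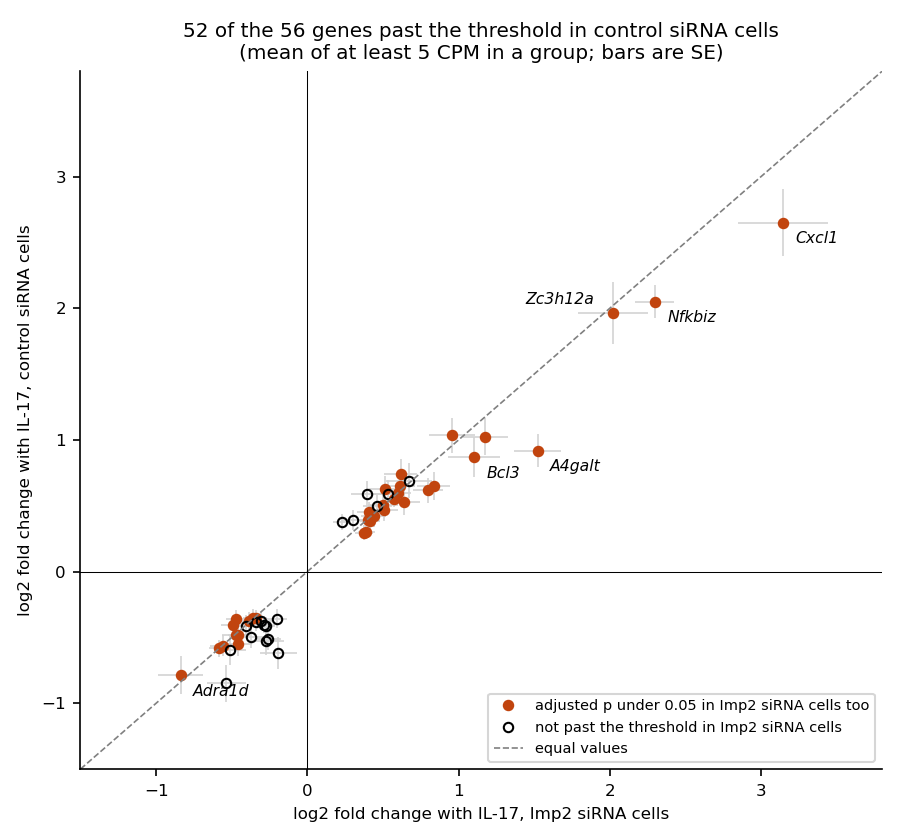
Log2 fold change with IL-17 in control siRNA cells (vertical) against Imp2 siRNA cells (horizontal), with SE bars, for 52 of the 56 changed genes that averaged 5 CPM or more in a control siRNA group. Filled points also passed in Imp2 siRNA cells; Cxcl1 lies at 2.65 on the vertical and 3.15 on the horizontal axis.

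The authors' deposited table of anti-IMP2 over IgG precipitation, from cells given IL-17 (200 ng/mL) for 3 h, is limited to genes whose log2 enrichment is 1 or higher and whose adjusted p is 0.05 or lower. It listed 13 of the 32 genes risen with IL-17 (40.6%, and 0.246% of its 5294 genes), 5 of the 24 fallen genes (20.8%, and 0.0944%) and 34.5% of all genes tested. Cxcl1 had the highest value of these in the authors' deposited table, at a log2 fold change of 3.58 (SE 0.922, adjusted p = 0.000442), followed by Mt1 at 3.52, Dstn at 2.94 and Id2 at 2.77. In the authors' deposited table Cyp7b1 stood at 2.72, Ier3 at 2.49, Zc3h12a at 1.71, A4galt at 1.57, Nfkbiz at 1.20 and Bcl3 at 1.11. A gene missing from that table had no value here.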

How the data were processed

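The authors deposited raw read counts per gene for 12 RNA-seq libraries, with Ensembl IDs, symbols and coordinates, and these counts were used as whole numbers. Libraries were made with Nextera XT, per the labels' protocols. The tools and build in the submitters' processing notes are STAR, CASAVA 1.4, DESeq2 and mm10, without roles. Strand is not stated there or in the labels, so reads of overlapping, antisense or near-identical genes could not be separated. For RIP-seq the authors' deposited comparison was used, which holds a mean normalized count (a signal per gene), a log2 fold change, a Wald score and p-values, per the file headers.

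Counts were fitted in R 4.3.3 with edgeR 4.0.16: filterByExpr kept 13702 of 48709 genes, libraries were scaled by TMM, and a robust quasi-likelihood model with group and title prefix used all 12 libraries, which share 1 estimate of the spread over the 4 groups. Adjusted p-values are Benjamini-Hochberg values over all genes tested (threshold 0.05). The SE is the absolute log2 fold change divided by the square root of F. A separate model with a level for each group and prefix tested the difference by prefix. Ratios for low counts carry exact 95% intervals that cover counting error only. Promoter windows came from RefSeq (GRCm38.p6) and were matched by gene. The scripts were tested on simulated data. Alternatives were RLE scaling, DESeq2 1.42.0, other filters, other models and leaving out each of the 6 control siRNA libraries in turn.

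Named with values in every library were the 12 largest rises and falls among genes averaging 5 CPM or more in a compared group, described members of the main lists, and the 8 largest values not passing, with an unadjusted p under 0.05 and the same 5 CPM limit. The members and gene lists were chosen with earlier results of these data known.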

Additional observations from a re-analysis of the deposited data

Results flagged for a closer look

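The IL-17 effect in control siRNA cells differed between RB160 and NA libraries, by edgeR's quasi-likelihood test of the difference itself, in 15 genes. Differences are the log2 effect in RB160 minus that in NA. They were 8.60 for Saa3, 3.94 for Steap4, 3.31 for Serpina3n, 1.63 for Selp, 1.18 for C3, 0.99 for the serpin gene Serpina3g, 0.97 for the hyaluronan synthase gene Has2 and 0.96 for Zc3h12a. Smaller positive differences were 0.91 for the zinc transporter gene Slc39a14, 0.74 for thrombomodulin (Thbd), 0.73 for the CTP synthase gene Ctps and 0.65 for the kinase gene Nek6. Negative differences were -0.998 for the glutamate transporter gene Slc1a6, -1.23 for Rps27rt, whose sequence resembles the ribosomal protein gene Rps27 so that its reads are uncertain, and -1.35 for St8sia2. The value of Saa3 rests on a library with 0 counts and is no bound.

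In Imp2 siRNA cells, whose libraries are not in that contrast but share the fit and its estimate of the spread, the difference by prefix had the same sign in 15 of 15 of these genes, against 62.1% of all genes tested. It passed the threshold in 3 of them (7 of all genes, 0.0511%): Selp (1.65, adjusted p = 0.0002), Saa3 (adjusted p = 0.02) and Zc3h12a (0.93, adjusted p = 0.0355). For Serpina3n it was 1.22 and for Steap4 2.87, neither past the threshold. That contrast was chosen after the data were seen.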

How the results depend on the processing

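The 56 changed genes kept their direction under all alternatives in which they were fitted. Their number was 95 with no filter on low counts, 193 with DESeq2 (90 higher, 103 lower), 152 with the 6 compared libraries alone, 1 with no prefix term (Cxcl1) and 428 with a level for each group and prefix, and 6 to 83 when 1 library was left out: 6, 18 and 14 without IL-17 replicates 1, 2 and 3, and 13, 83 and 20 without control replicates 1, 2 and 3. All 56 were among the 193 and the 428, and 54 among the 152. In the NA libraries alone 64 passed, 50 higher and 14 lower, against 32 and 24, and 34 of the 56 were among the 64. Without control replicate 2, 44 of the 56 were among the 83. Past the threshold in each of the 6 fits without 1 library were Adamts5, Lrig1, Nfkbia and Nfkbiz. IL-17 targets past it, 5 of 23, were 10 with DESeq2, 1 with no prefix term, 18 with a level for each group and prefix, and 2 to 5 with 1 library left out. The 62 genes of Imp2 siRNA cells became 110 with no filter, 171 with DESeq2, 2 with no prefix term and 314 with a level for each group and prefix. With 1 of the 6 control siRNA libraries left out, 54 to 116 passed. Imp2 siRNA libraries were not left out 1 at a time. That range therefore does not show how the 62 depend on single libraries of their own contrast. The 15 genes that differ by prefix became 119 with no filter, 9 with the 5 CPM filter, 23 with the 6 libraries alone and 9 with no robust moderation. They became 6 to 17 with 1 NA library of control siRNA cells left out, and 7 passed in the Imp2 siRNA libraries. No fit of that difference left out an RB160 library, as each RB160 level held 1 library. Il17ra (0.03), which did not pass, reversed to -0.00400 in the NA libraries alone and ran from -0.00903 (without IL-17 replicate 1) to 0.0810 with 1 library left out, reversed at -0.00280 without IL-17 replicate 2. Igf2bp2 (0.04), which did not pass, ran from -0.0682 (without control replicate 1) to 0.151, reversed at -0.0213 without IL-17 replicate 2. The cause was not tested. In the fit with a level for each group and prefix, each RB160 level held 1 library, so its spread came from NA libraries alone.

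No paired analysis was possible because the RNA-seq titles give the groups no shared replicate numbers. The RB160 values rest on 1 library per group, Nos2, Cxcl5, Gfra2 and Wnt4 rest on few counts, and a fall or rise missing from the 56 was not shown to be absent.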
